A study of Homo sapiens with 6 samples.

Results

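The genes described here are PCDH1, other non-clustered protocadherins and a group of cadherins: PCDH1, PCDH7, PCDH9, PCDH10, PCDH18, CDH2, CDH3, CDH4, CDH11 and CDH13. They were chosen by symbol after PCDH1 had been picked for its measured response to dose, so its differences from DMSO are given as a description. Of the 10 named genes, 9 were found among the 16623 genes with values, and PCDH10 was not analysed here. The libraries came from MDA-MB-231, a human triple-negative breast cancer cell line with a mesenchymal character, grown as an adherent culture. Cells received the vehicle DMSO, or 100 nM or 200 nM PCI-24781, a hydroxamate inhibitor of histone deacetylases, for 24 h or 48 h. The 6 conditions (DMSO, 100 nM and 200 nM at 24 h and at 48 h) were each measured in 1 RNA-seq library, made as an mRNA library from extracted total RNA. There is therefore no replicate, no test and no p-value, and every difference below is a difference between libraries. All 6 libraries share the same cell line, which is a single line and not a panel of tumors.

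Cadherins are calcium-dependent adhesion receptors of the cell surface. Classical cadherins bind the same cadherin on a neighboring cell, and their cytoplasmic tails bind β-catenin and p120-catenin, through which the junction is coupled to actin. Non-clustered protocadherins include the δ-protocadherins, which have more extracellular cadherin repeats and lack the catenin-binding tail. PCDH1, PCDH7 and PCDH9 belong to the δ1 class, and PCDH10 and PCDH18 to the δ2 class, some of whose tails recruit the WAVE complex, a regulator of actin branching. A switch between cadherins is a familiar feature of epithelial to mesenchymal transition in breast cancer, in which E-cadherin (CDH1) gives way to N-cadherin (CDH2).

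The promoters of PCDH1, PCDH9 and PCDH7 are shown because these 3 δ1 protocadherins were all at FPKM 1 or more in at least 1 library and differed in how far they moved. Each sequence is the 250 bases upstream of the start site in the RefSeq table (GRCh38.p14), 5′ to 3′ on the strand of the gene, with the GC box GGGCGG (or CCGCCC on the other strand) in capitals. PCDH1 lies at chr5:141869628-141869877 (minus strand), PCDH9 at chr13:67230337-67230586 (minus strand) and PCDH7 at chr4:30720119-30720368 (plus strand).
PCDH1: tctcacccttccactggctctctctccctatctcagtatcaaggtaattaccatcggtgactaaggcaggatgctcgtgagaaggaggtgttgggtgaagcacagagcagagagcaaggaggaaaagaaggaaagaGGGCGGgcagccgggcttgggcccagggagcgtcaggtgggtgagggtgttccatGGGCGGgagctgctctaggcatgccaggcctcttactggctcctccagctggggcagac
PCDH9: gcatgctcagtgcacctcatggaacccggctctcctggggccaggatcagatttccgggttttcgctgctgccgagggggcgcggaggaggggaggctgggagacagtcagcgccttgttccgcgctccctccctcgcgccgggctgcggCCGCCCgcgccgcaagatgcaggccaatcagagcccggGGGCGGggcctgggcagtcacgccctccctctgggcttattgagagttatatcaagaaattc
PCDH7: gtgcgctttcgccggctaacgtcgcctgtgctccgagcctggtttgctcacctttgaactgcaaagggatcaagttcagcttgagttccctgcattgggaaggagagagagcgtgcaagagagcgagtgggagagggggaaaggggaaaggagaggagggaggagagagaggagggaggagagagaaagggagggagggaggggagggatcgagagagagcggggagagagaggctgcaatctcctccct

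The PCDH1 window held 2 GC boxes, the PCDH9 window 2 and the PCDH7 window 0. The GC box, searched on both strands, was present in 42.3% of 27303 RefSeq promoters of the same length, so its presence is not particular to these genes. The PCDH1 window also held the letters CAGGTG, which occurred in 17.5% of all promoters, and neither of the other windows did. CCAAT was found once in PCDH9 and once in PCDH7 and was present in 33.0% of all promoters. CACGTG (6.49% of all promoters) and TGACTCA (4.16%) were found in none of the 3 windows. The PCDH1 window was 59.2% G or C with 6 CpG, against 66.8% with 20 CpG for PCDH9 and 59.6% with 10 CpG for PCDH7, and the median over all promoters was 58% with 11 CpG. These are matches of letters and not measured binding sites. The RefSeq start site of PCDH1 lies inside the span of the gene as annotated on GRCh38, and which start the cells used was not measured.

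Expression is given as FPKM, a fragment count scaled for the length of the transcript and for the total of mapped fragments in the library. The spacing of the low FPKM values gave an inferred depth of 15700000 to 17900000 fragments, and 1130 to 1708 genes per library were listed at 0. A count of 3 fragments on a 4 kb transcript correspond to FPKM 0.0419 to 0.0478, and values at this level are at the limit of counting. The markers VIM, CD44, CAV1, AXL and EGFR were high in all 6 libraries, with EGFR the lowest of the 5 at FPKM 35.12 to 49.77. ESR1 and PGR did not exceed FPKM 0.04, whereas EPCAM, a marker of epithelial cells, was at 2.26 to 4.70 and CDH1 at 0.24 to 0.39. In such bulk RNA, fewer cells that express a gene and less RNA of it per cell cannot be told apart. The DMSO libraries differed from each other: 286 of 11490 genes tested were at least 2-fold higher at 48 h than at 24 h and 15 were lower. Set against the DMSO library of the other time, the 100 nM library at 24 h had 7 genes higher and 59 lower, and the 100 nM library at 48 h had 184 higher and 29 lower. For this reason each treated library is given against the DMSO library of its own time and, where it matters, against the other. The order of the 48 h libraries also went against that at 24 h: of 523 genes called at least 2-fold higher with 200 nM than with DMSO at 24 h, 441 were lower in the library labelled 100 nM 48 h than in the library labelled DMSO 48 h and 77 were higher (median difference −0.30), against 6028 lower and 5435 higher of 11514 genes tested (median −0.01). An exchange of these 2 libraries is a doubt that the data here cannot settle. The labels were taken as given, and every value at 48 h against DMSO, and every difference between the DMSO libraries, depends on them.

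PCDH1 (gene ID 5097, chr5 141232676 to 141257975 on hg19, minus strand) encodes protocadherin-1, a δ1 protocadherin of airway and other epithelia. Its FPKM was 0.08 with DMSO, 3.21 with 100 nM and 10.16 with 200 nM PCI-24781 at 24 h, then 3.08, 0.15 and 12.53 in the same order at 48 h. Both 200 nM libraries were the highest, the 100 nM library at 24 h and the DMSO library at 48 h lay together in the middle, and the DMSO library at 24 h and the 100 nM library at 48 h were close to the counting limit. The highest library was 157-fold above the lowest. With the shortest transcript taken as the gene, the FPKM stood for about 5, 216 and 677 fragments at 24 h and about 205, 10 and 753 at 48 h.

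**Figure D1:**
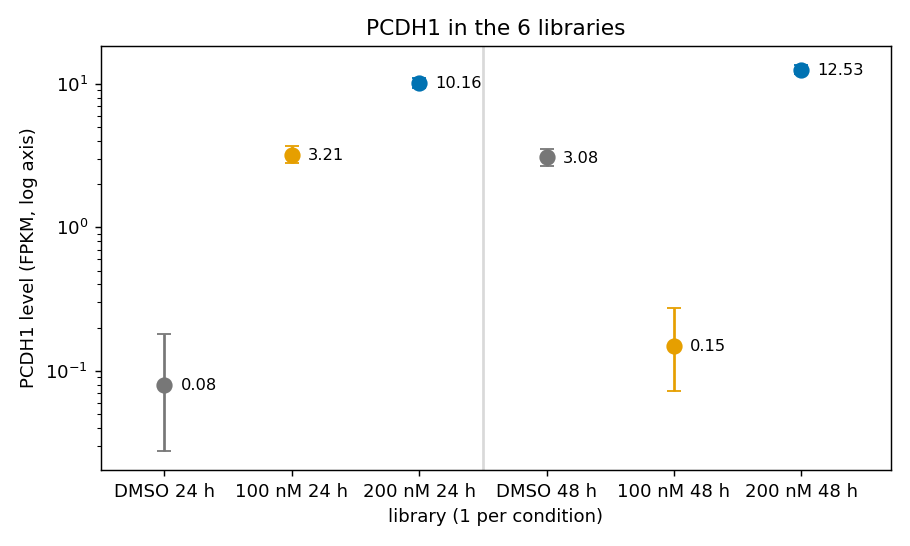
FPKM of PCDH1 in each of the 6 libraries, on a log axis, with bars for the 95% exact Poisson interval of the inferred fragments, which covers counting error only. The values run from 0.08 in the DMSO library at 24 h to 12.53 in the 200 nM library at 48 h, and the middle pair is 3.21 and 3.08.

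Measured as the log2 ratio of FPKM + 1 to the DMSO library of the same time, PCDH1 differed by 1.96 at 100 nM and 3.37 at 200 nM after 24 h. After 48 h the ratio was −1.83 at 100 nM and 1.73 at 200 nM. The added 1 reduces the ratio of genes this low, and on FPKM itself the 24 h ratios were 40.1 (95% counting interval 16.9 to 125) and 127 (54.2 to 392). At 48 h the FPKM ratios were 0.0487 (0.0230 to 0.0914) and 4.07 (3.48 to 4.77). Intervals cover counting error alone and say nothing of variation between cultures. Among all genes tested PCDH1 ranked 11 of 11475 from the top at 100 nM and 3 of 11660 at 200 nM after 24 h, and after 48 h it was the lowest of 11514 at 100 nM and ranked 3 of 11665 at 200 nM.

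Under the labels as given, the order of PCDH1 by dose differed between the times. At 24 h it went up with each dose, and the 200 nM library was 1.41 above the 100 nM library on the log2(FPKM + 1) scale, an FPKM ratio of 3.17 (2.71 to 3.71). At 48 h the library labelled 100 nM lay below the library labelled DMSO, and the step from 100 nM to 200 nM was 3.56, an FPKM ratio of 83.5 (45.2 to 175) and the largest increase of 11694 genes tested in that step. PCDH1 was at least 2-fold higher in both steps, as were 0.343% of genes tested at 24 h and 1.71% at 48 h. Between the DMSO libraries PCDH1 was 1.92 higher at 48 h, an FPKM ratio of 38.5 (16.2 to 120), which is as far as the 100 nM library lay above DMSO at 24 h. Against the DMSO library of the other time, the 100 nM libraries differed by 0.05 at 24 h and 0.09 at 48 h, while the 200 nM libraries remained higher by 1.45 and 3.65. Only the 200 nM libraries were thus higher than both DMSO libraries by at least 2-fold on this scale. With 1 library per condition, time in culture, the vehicle library used as reference, an exchange of the libraries labelled DMSO 48 h and 100 nM 48 h, and the treatment cannot be told apart in the 100 nM values. If those 2 labels were exchanged, PCDH1 would be in the order DMSO, 100 nM, 200 nM at both times, with FPKM 0.15, 3.08 and 12.53 at 48 h, the −1.83 would change sign (an FPKM ratio of 20.5, 10.9 to 43.5), and the DMSO libraries would differ by 0.09 in place of 1.92.

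The genes whose log2(FPKM + 1) over the 6 libraries followed PCDH1 most closely were CREG1 (Pearson r = 0.998), SERPINE2 (0.995), GRB14 (0.995), HPSE (0.993) and SCIN (0.992), among 1233 genes with FPKM of at least 1 in any library and a range of at least 1 on the log2 scale. CREG1 encodes a secreted glycoprotein of the endosomal and lysosomal system, SERPINE2 a secreted serine protease inhibitor, GRB14 an adaptor of receptor tyrosine kinases, HPSE heparanase and SCIN an actin-severing protein. CREG1 was at FPKM 11.85, 21.63 and 36.31 at 24 h, then 21.98, 12.08 and 35.87 at 48 h for DMSO, 100 nM and 200 nM. SCIN was at 0.17, 1.29 and 3.77 at 24 h, then 1.32, 0.31 and 3.70 at 48 h. Both had the order of PCDH1 in the sense that the 100 nM library at 48 h lay beside the DMSO library at 24 h. Of the 1233 genes, 264 had r of at least 0.9 with PCDH1, 38 had an r as strongly negative, and the median was 0.65. The 1233 were kept for their range over these same libraries, so these counts do not describe all genes. These r values describe 6 libraries that share a cell line and 2 vehicle controls, and carry no test.

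PCDH9 (gene ID 5101, chr13 66876966 to 67804468, minus strand), a δ1 protocadherin best known in the nervous system, had FPKM 0.48, 0.98 and 1.31 at 24 h, then 0.88, 0.47 and 0.98 at 48 h in the order DMSO, 100 nM, 200 nM. It had the same low libraries as PCDH1, DMSO at 24 h and 100 nM at 48 h, at a much smaller range of 2.79-fold. The FPKM ratio to DMSO was 2.04 (1.405 to 3.005) and 2.73 (1.91 to 3.95) at 24 h, and 0.534 (0.359 to 0.785) and 1.11 (0.803 to 1.54) at 48 h. These intervals take the shortest transcript as the gene, with 43 to 116 fragments per library. The longest transcript would give 237 to 643, so the width of the intervals is uncertain. On the log2(FPKM + 1) scale the differences were 0.42, 0.64, −0.35 and 0.07, none of which reached 2-fold. Its r with PCDH1 was 0.92.

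PCDH7 (gene ID 5099, chr4 30722030 to 31148423, plus strand), the δ1 protocadherin also called NF-protocadherin, was at FPKM 3.75, 4.73 and 4.10 at 24 h, then 3.70, 3.53 and 4.39 at 48 h. The libraries lay within 1.34-fold of one another. The log2(FPKM + 1) differences from DMSO were 0.27 and 0.10 at 24 h, then −0.05 and 0.20 at 48 h. PCDH7 was thus expressed in every library, at a level above PCDH1 in the DMSO and 100 nM libraries and below it in both 200 nM libraries, comparing FPKM, which is scaled for length. PCDH18 (gene ID 54510, chr4 138440072 to 138453652, minus strand), a δ2 protocadherin, was listed at FPKM 0.02 with DMSO at 24 h, 0.01 with 200 nM at 48 h and 0 in the other 4 libraries, which is at most 2 fragments, so no difference was detectable at this depth.

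CDH4 (gene ID 1002, chr20 59827482 to 60515673, plus strand), R-cadherin, a type I classical cadherin first described in the retina, had the highest level of the 9 genes. Its FPKM was 23.48, 25.65 and 21.05 at 24 h, then 23.61, 25.62 and 22.90 at 48 h. The 6 libraries lay within 1.22-fold, with both 100 nM libraries highest. The FPKM ratio to DMSO was 1.09 (1.01 to 1.18) and 0.897 (0.827 to 0.971) at 24 h and 1.09 (1.01 to 1.17) and 0.970 (0.894 to 1.05) at 48 h. In contrast to PCDH1, the DMSO libraries differed by 0.01 on the log2(FPKM + 1) scale, and the 200 nM library at 24 h was 0.27 below the 100 nM library.

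CDH2 (gene ID 1000, chr18 25530927 to 25757410, minus strand), N-cadherin, was low in every library and at the counting limit with DMSO at 24 h. Its FPKM was 0.04, 0.20 and 0.32 at 24 h, then 0.23, 0.16 and 0.50 at 48 h, on about 3, 13, 21, 15, 11 and 29 fragments. Like PCDH1, it was lowest with DMSO at 24 h and highest with 200 nM at 48 h, and within 48 h the 100 nM library was below DMSO. The FPKM ratio to DMSO was 5 (1.37 to 27.4) and 8 (2.39 to 41.9) at 24 h, and 0.696 (0.289 to 1.62) and 2.17 (1.13 to 4.36) at 48 h. On the log2(FPKM + 1) scale no difference from DMSO of the same time exceeded 0.34, and CDH2 did not reach FPKM 1 in any library.

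The study measured N-cadherin by RT-qPCR with a primer pair that is shown here because it marks which part of the transcript was read by that assay.
forward primer: agccaaccttaactgaggagt
reverse primer: ggcaagttgattggagggatg

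Both primers of 21 bases matched 4 CDH2 transcripts of GENCODE 29. In a CDH2 transcript of 4332 nt they bounded a product of 136 nt at positions 795 to 930, with the forward primer in exon 3 and the reverse primer in exon 4 of 16. RNA-seq fragments were counted over the whole gene, so the values above are not restricted to that region.

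CDH3 (gene ID 1001, chr16 68678739 to 68732971, plus strand), P-cadherin, a marker of basal-like epithelium, was listed at 0 with DMSO at 24 h and at FPKM 0.08 and 0.11 with 100 nM and 200 nM. At 48 h it was at 0.09, 0.05 and 0.10. These stand for 0 to 7 fragments, and no library reached FPKM 1. CDH11 (gene ID 1009, chr16 64977656 to 65156040, minus strand), the type II OB-cadherin of mesenchymal cells and osteoblasts, was at FPKM 0.02 in all 6 libraries, about 2 fragments each. CDH13 (gene ID 1012, chr16 82660399 to 83830215, plus strand), T-cadherin, which is anchored by a lipid and has no cytoplasmic tail, was listed at 0 in 4 libraries, at 0.01 with 200 nM at 24 h and at 0.06 with DMSO at 48 h. A difference in CDH11 was not detectable at this depth. For CDH13 the 0.06 stood for about 1 fragment on its shortest transcript or 8 on its longest, so whether it differed is uncertain. CDH3, CDH11 and CDH13 lie on chromosome 16, and CDH3 lies 38.2 kb from CDH1.

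**Figure D2:**
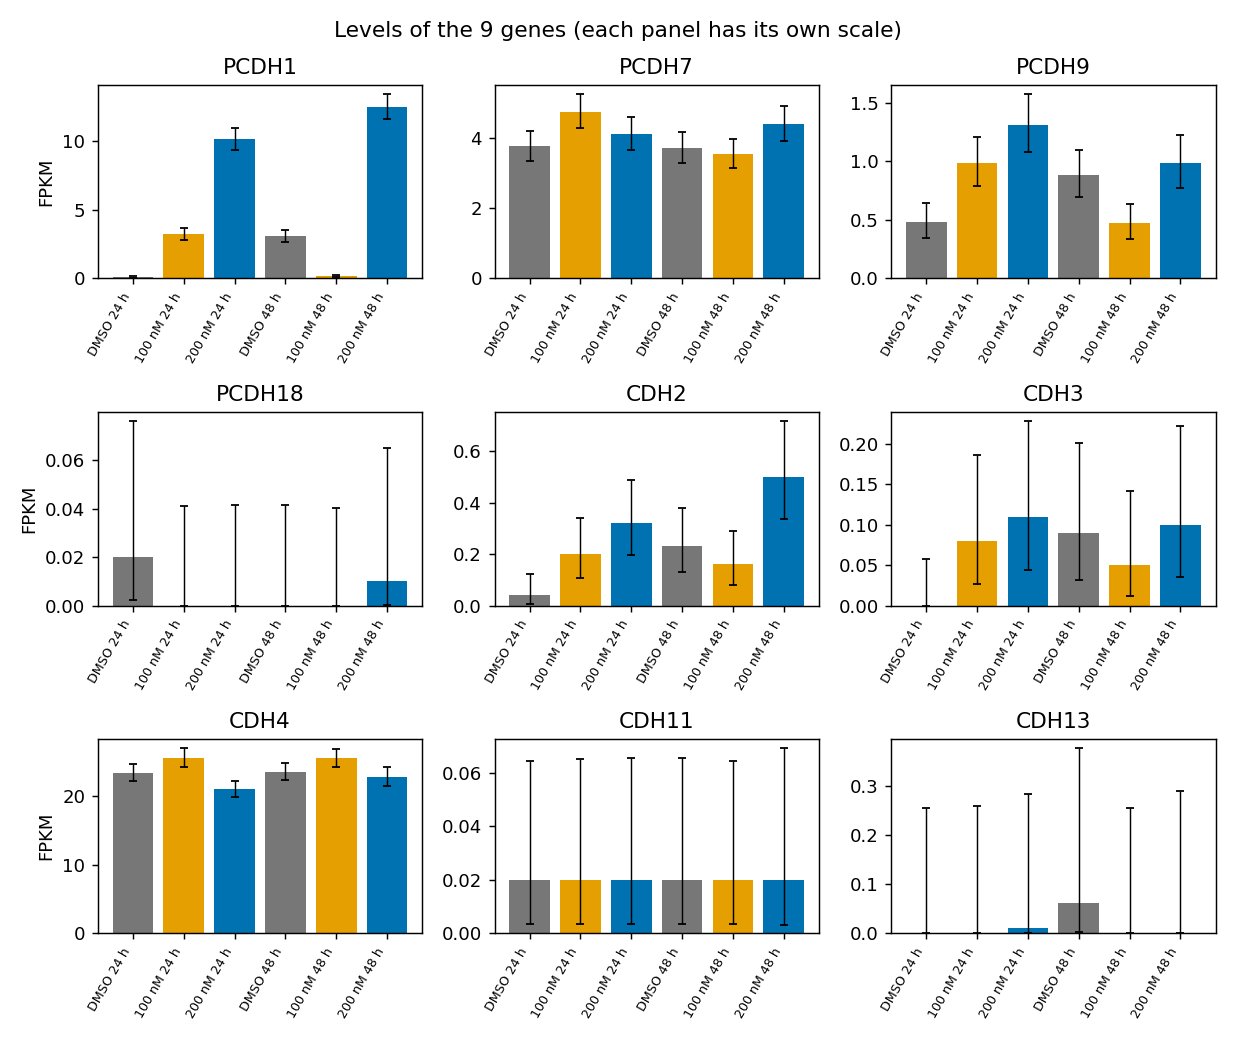
FPKM of the 9 genes, with 1 bar per library, 1 panel per gene on its own scale from 0, and error bars for the 95% exact Poisson interval of the inferred fragments, which covers counting error only. CDH4 and PCDH7 stay within 1.22-fold and 1.34-fold, PCDH1 spans 157-fold, and CDH3, CDH11, CDH13 and PCDH18 stay at or below FPKM 0.11.

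By mean FPKM over the libraries, CDH4 ranked 3418 of 16623 genes, PCDH1 8666, PCDH7 9128 and PCDH9 11603. The levels of PCDH1 and PCDH7 changed order between libraries, so their order by mean does not hold in each of them. The other 5 genes were below FPKM 1 in every library. A gene is counted here as called when it differed at least 2-fold on the log2(FPKM + 1) scale and had FPKM of at least 1 in either library, and 3 or 4 of the 9 genes could be called in a comparison.

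PCDH1 was the only called gene in every comparison, and since it was chosen for this response nothing is read from its count. At 100 nM and 24 h, 1 of 3 tested was higher and 0 lower, beside 1.35% and 0.131% of all genes tested. At 200 nM and 24 h, 1 of 4 was higher and 0 lower, beside 4.49% and 1.48%. At 48 h, 100 nM had 0 higher and 1 of 3 lower, beside 0.0608% and 0.408%, and 200 nM had 1 of 3 higher and 0 lower, beside 0.206% and 0.06%. Between the DMSO libraries 1 of 3 was higher at 48 h and 0 lower, beside 2.49% and 0.131%. The median of the 9 genes was 0.12, 0.10, −0.05 and 0.01 for 100 nM and 200 nM at 24 h and then at 48 h, and 0.01, 0.03, −0.01 and 0.01 over all genes. Apart from PCDH1, the largest difference from DMSO of the same time was 0.64, for PCDH9 at 200 nM and 24 h, and the 5th and 95th percentiles of the tested genes in that comparison were −0.67 and 0.95.

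**Figure D3:**
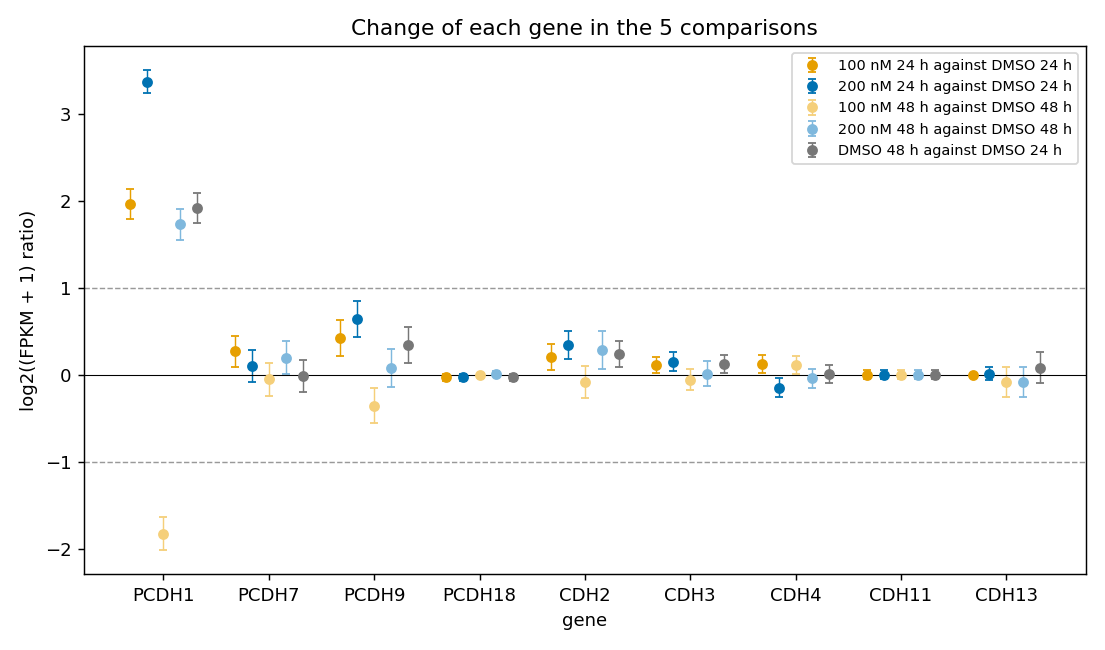
Difference from the DMSO library of the same time, and of DMSO 48 h from DMSO 24 h, as the log2 ratio of FPKM + 1, for the 9 genes, with bars for the 95% interval of counting error and dashed lines at a 2-fold difference. PCDH1 is at 1.96, 3.37, −1.83 and 1.73 against DMSO, and all other genes lie between −0.35 and 0.64.

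Related genes were read from lists of the families and partners. The counts of called genes in these lists stand beside the shares of all genes tested given above. At 24 h, 1.35% were called higher at 100 nM and 4.49% at 200 nM. Of 7 other non-clustered protocadherins, 6 were found and only PCDH20 reached FPKM 1. PCDH20 was at 0.37, 2.20 and 2.49 at 24 h, then 1.97, 0.76 and 2.62 at 48 h. Its log2(FPKM + 1) differences were 1.22, 1.35, −0.75 and 0.29, so it was called at both doses at 24 h. PCDH20 was also called between the DMSO libraries, 1.12 higher at 48 h, beside 2.49% of all genes tested. Both calls at 24 h thus depend on the low DMSO library of that time. The libraries low for PCDH20 were those low for PCDH1. Of 14 other classical cadherins, 11 were found and only CDH24, a type II cadherin, reached FPKM 1, at 4.10, 6.56 and 9.34 at 24 h, then 4.84, 3.99 and 5.97 at 48 h. It was called higher at 200 nM and 24 h, by 1.02, and the DMSO library at 48 h lay 0.20 above that at 24 h. E-cadherin did not exceed FPKM 0.39 in any library.

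Of the 12 catenins and junction linkers, 9 reached FPKM 1 in a library and 1, JUP, was called. JUP was called higher at both doses at 24 h, beside 1.35% and 4.49% of all genes tested. JUP encodes plakoglobin, a relative of β-catenin found in desmosomes and adherens junctions. Its FPKM was 3.02, 9.27 and 17.78 at 24 h, then 13.92, 12.87 and 18.40 at 48 h, and its log2(FPKM + 1) differences were 1.35, 2.22, −0.11 and 0.38. The DMSO library at 48 h lay 1.89 above that at 24 h. The α-catenin gene CTNNA1 (181.12 to 230.96), CTNNB1 (84.16 to 105.51) and VCL, encoding vinculin (97.51 to 105.73), moved little across the libraries. CTNNAL1, with a higher mean than CTNNB1 and VCL, ranged more widely, from 98.86 to 146.33, and was not called. Its differences from DMSO were −0.18, −0.28, 0.10 and 0.01, and DMSO at 48 h differed from DMSO at 24 h by −0.56. The median of the 12 genes lay between −0.05 and 0.09 in the 4 comparisons with DMSO.

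All 9 WAVE complex genes reached FPKM 1, and CYFIP2, a subunit of the complex, was called. At 24 h it was called higher at both doses, beside 1.35% and 4.49% of all genes tested. CYFIP2 was at FPKM 0.58, 3.82 and 6.80 at 24 h, then 2.23, 1.09 and 3.73 at 48 h, with differences of 1.61, 2.30, −0.63 and 0.55. Between the DMSO libraries CYFIP2 was also called, 1.03 higher at 48 h, beside 2.49% of all genes tested. The calls at 24 h thus use the lower of the DMSO libraries as reference. Its paralog CYFIP1 went from 25.61 to 19.61 between DMSO and 200 nM at 24 h, a difference of −0.37, which was not called. BRK1, ABI1 and NCKAP1 had the highest means of the complex and were not called. NCKAP1 went from 78.24 to 47.79 between DMSO and 200 nM at 24 h, a difference of −0.70. The 5th percentile of all genes tested there was −0.67. At 200 nM and 48 h NCKAP1 differed by −0.16. Of 6 listed δ-protocadherin partners (protein phosphatase 1 subunits, SET, SMAD3 and DAB1) 5 were found and 0 were called. The largest of their differences from DMSO of the same time was that of SMAD3 at 200 nM and 24 h, 0.52.

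**Figure D4:**
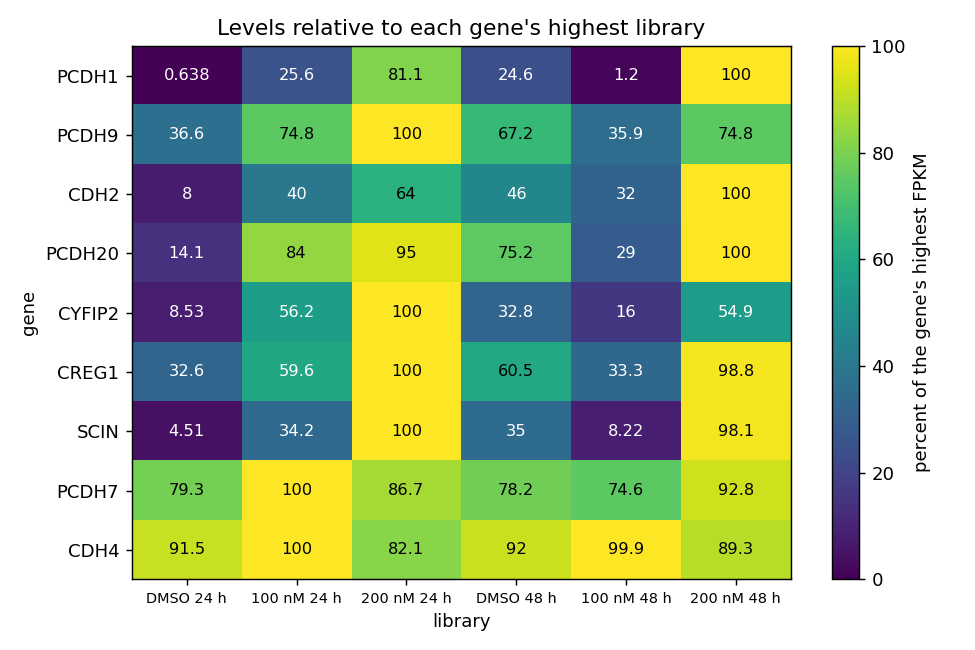
FPKM of selected genes in each library as a percent of the highest library of that gene. PCDH1 falls to 0.638% in the DMSO library at 24 h and 1.20% in the 100 nM library at 48 h, PCDH20 to 14.1% and CYFIP2 to 8.53% in the DMSO library at 24 h, whereas CDH4 stays above 82%.

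Within 300 kb of PCDH1, 10 genes were listed, of which 9 reached FPKM 1 in a library, and none was a clustered protocadherin. The gene below FPKM 1 was PCDH12, a non-clustered protocadherin 65.2 kb away, at FPKM 0.12 to 0.25. The nearest was DELE1, a mitochondrial stress protein gene, 45.4 kb away, with differences of −0.13, −0.22, −0.06 and −0.12. HDAC3, which encodes a class I deacetylase, lies 216.3 kb away and differed by −0.01, 0.43, 0.11 and 0.15. Of the 10, only RELL2, 212 kb away, was called, by 1.08 at 200 nM and 24 h, and its value is uncertain because it overlaps FCHSD1 on the other strand. Across the 9 genes (DIAPH1, HDAC3, RELL2, FCHSD1, ARAP3, DELE1, RNF14, GNPDA1 and NDFIP1) the median difference was −0.01, 0.04, −0.02 and 0.01 in the 4 comparisons. PCDH1, at 1.96, 3.37, −1.83 and 1.73, lay outside the range of its neighbors in each. Since PCDH1 was chosen for this response, nothing is read from that contrast.

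**Figure D5:**
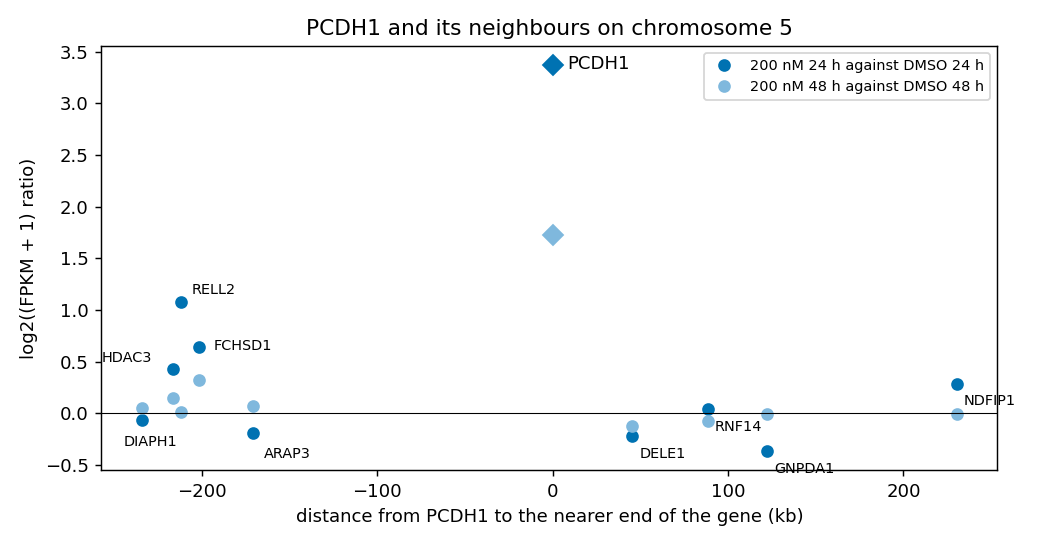
Difference of each 200 nM library from the DMSO library of the same time, as the log2 ratio of FPKM + 1, against distance from PCDH1 in kb, for the 9 genes within 300 kb that reached FPKM 1 (circles) and PCDH1 (diamonds), dark for 24 h and light for 48 h. The neighbors lie between −0.36 and 1.08, and PCDH1, which was chosen for its response, lies above them at 3.37 and 1.73.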

How the data were processed

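The authors extracted total RNA from the MDA-MB-231 cells, had libraries sequenced as RNA-seq, and deposited 1 table per library of FPKM values, rounded to 2 decimals, for 16623 genes. Per the labels, Bowtie2 and RSEM were used with hg19; versions are not given in the sources used here. The deposited FPKM were used unchanged, with no counts. Gene IDs were paired with symbols through RefSeq (16585 matched, 38 did not), and coordinates on hg19 come from the deposited tables. Fragments behind a value were inferred from the steps between low FPKM of single-transcript genes of 500 to 1500 nt (GENCODE 29 lengths), giving 15700000 to 17900000 per library, and exact Poisson or conditional 95% intervals cover counting error only. Fragments and intervals take the shortest transcript of a gene unless stated, and the floor is 3 fragments.

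Differences are log2 ratios of FPKM + 1, called at 2-fold with FPKM of at least 1 in either library. With 1 library per condition no test was made. The members and lists were chosen with earlier results of these data known. Named genes are the 10 members, the 5 most like PCDH1, called or highest-mean genes of each list (up to 4), and expressed genes within 300 kb of PCDH1. Alternatives were another pseudocount, other filters, a 1.5-fold threshold, TPM, median-of-ratios factors and the DMSO library of the other time. Protein sequences were not used here. Python 3.11.15, numpy 2.4.6, pandas 2.3.3, scipy 1.17.1 and matplotlib 3.10.9 were used.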

Additional observations from a re-analysis of the deposited data

Results flagged for a closer look

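PCDH1 was higher than DMSO of the same time at 100 nM after 24 h, by 1.96 on the log2(FPKM + 1) scale, and lower after 48 h, by −1.83. Under the labels as given, the same dose had opposite directions at the 2 times. An exchange of the libraries labelled DMSO 48 h and 100 nM 48 h would give the same direction at both times and cannot be told apart from a difference between the times. The difference was not tested, since each condition has 1 library, and the 2 DMSO libraries themselves differed by 1.92 for this gene.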

How the results depend on the processing

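No paired analysis was possible because no condition was sequenced more than once, and for the same reason no library could be left out in turn. All values are counts of called genes, higher then lower, in the order 100 nM and 200 nM at 24 h, 100 nM and 200 nM at 48 h, and DMSO 48 h against DMSO 24 h. As reported, these came to 155 and 15, 523 and 172, 7 and 47, 24 and 7, and 286 and 15. A pseudocount of 0.1 gave 384 and 42, 880 and 283, 32 and 121, 103 and 25, and 565 and 42. A 1.5-fold threshold gave 640 and 144, 1463 and 888, 58 and 203, 178 and 54, and 978 and 224. With both settings PCDH9 joined PCDH1 at 200 nM and 24 h, giving 2 members higher. TPM gave 332 and 34, 855 higher, 21 and 88, 81 and 16, and 492 and 39. With FPKM of at least 1 in both libraries, higher counts were 99, 323 and 2 for the first 3 comparisons, lower counts 29 and 4 at 48 h, and PCDH1 was not tested, leaving 0 members called, except at 200 nM and 48 h. Against the DMSO library of the other time the counts were 7 and 59, 101 higher, 184 and 29, and 549 and 53, with 0 members higher at 100 nM and 24 h and 0 lower at 100 nM and 48 h. There PCDH1 at 100 nM and 48 h turned from −1.83 to 0.0906. Median-of-ratios factors and no filter moved no count by over 1.5 times. The PCDH1 difference at 200 nM and 24 h was 5.83 with a pseudocount of 0.1 and 4.41 as TPM. Members below FPKM 1 are limited by depth.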

Other observations

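Among 18 distant cadherins, 17 were found, 5 reached FPKM 1 and 0 were called. At 200 nM and 24 h, 4.49% of all genes tested were called higher and 1.48% lower. FAT1, a giant atypical cadherin, was at FPKM 24.07, 29.39 and 28.91 at 24 h, then 20.55, 17.99 and 26.63 at 48 h for DMSO, 100 nM and 200 nM. CELSR1, a planar cell polarity cadherin, was at 4.49, 3.30 and 2.62 at 24 h, then 4.68, 6.45 and 3.52 at 48 h, with its highest library at 100 nM and 48 h.

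All 43 clustered protocadherins were found, 9 reached FPKM 1 and 0 were called. At 200 nM and 24 h the median over all 43 was −0.03. Of the genes tested there, PCDHB11 and PCDHB13 passed the filter only through the DMSO library, so they could only be lower. In that comparison 6 were tested and all 6 were lower than DMSO, with a median of −0.44, beside 5668 lower of 11660 genes tested. The direction was not shared by the other comparisons with DMSO: 4 were higher and 3 lower at 100 nM and 24 h (median 0.04), 6 higher and 2 lower at 100 nM and 48 h (median 0.03), and 6 higher and 2 lower at 200 nM and 48 h (median 0.07). PCDHGB1, the most abundant by mean, was at 4.39, 4.92 and 3.69 at 24 h, then 4.64, 4.64 and 4.78 at 48 h. The PCDHA genes share constant exons with one another, as do the PCDHG genes, so the split of fragments within each of these clusters is uncertain.

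At 200 nM and 24 h, 4.49% of all genes tested were called higher. Of 12 enzymes that process cadherins, 11 reached FPKM 1 and only PCSK5, a proprotein convertase, was called, at 200 nM and 24 h, by 1.05. Its FPKM was 0.61, 1.74 and 2.34 at 24 h, then 1.54, 1.07 and 1.97 at 48 h. The DMSO library at 24 h, the reference for this call, lay below that at 48 h by 0.66 on the log2(FPKM + 1) scale.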
